A study of Mus musculus with 6 samples.

Results

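Aminoacyl-tRNA synthetases are the enzymes that load each amino acid onto its transfer RNA. The account covers 36 of the 32739 genes in the files, 20 that encode cytosolic enzymes (named for the amino acid, as in Aars for alanine) and 16 that encode mitochondrial enzymes (with a final 2 in the name). They were taken by symbol from a list of names that was chosen with earlier results of these data known. All 36 passed the filter on low counts. RNA sequencing was done on HL-1 cells, a single mouse line derived from atrial cardiomyocytes, grown in Claycomb medium. By the design text, cells of all 6 libraries had 6 h of hypoxia followed by reoxygenation for 1 h, while the sample descriptions carry the tag ReOx7h, and which span that tag covers is not said. There were 3 libraries with vehicle and 3 with 5 µM BRL37344 (BRL below), a β3-adrenergic agonist per the series, added to the medium at a time that is not given. No label says whether replicates were grown as separate cultures, so p-values here reflect spread among libraries that could be technical only.

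Cytosolic enzymes charge the transfer RNAs that feed cytosolic ribosomes, and several of them (for aspartate, glutamate and proline, isoleucine, lysine, leucine, methionine, glutamine and arginine) sit together in a multisynthetase complex held by scaffold proteins. A separate, nuclear-encoded set is imported into mitochondria, where it serves the translation of the few respiratory chain proteins encoded there; Gars and Kars make the enzyme for both compartments. Uncharged transfer RNA activates the kinase GCN2 (Eif2ak4), which raises translation of the transcription factor ATF4, and many cytosolic synthetase genes are known targets of ATF4.

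BRL replicate 1 stood apart from the other libraries. Transcripts encoded in mitochondria took 5.03% of its counts and between 16.5% and 21.9% in the other 5. Counts of BRL replicate 1 differed from those of BRL replicates 2 and 3 with chi-square statistics of 89.2 and 76.8 per degree of freedom, against 1.69 to 4.2 between other libraries of 1 group. Total expected counts were 4440168 to 5060049 in vehicle and 6812810 to 8332472 in BRL, so depth did not overlap between groups. The summed level of 10 cardiomyocyte and atrial markers was 7253 to 8030 CPM (read counts relative to the scaled library total) in vehicle and 4038 to 5665 CPM in BRL, lowest in BRL replicate 1. Myh6 alone, the only one of the 10 that edgeR called, measured 3002 to 3602 CPM in vehicle and 979 to 1611 CPM in BRL. Actc1 had 774 to 894 CPM in vehicle and 253, 549 and 565 CPM in BRL. Myl4 had 439 to 472 CPM in vehicle and 257, 367 and 373 CPM in BRL. Both were thus below vehicle in every BRL library, like Myh6, and 8 of the 10 log2 fold changes were negative. The remaining markers did not follow Myh6 in every library. Gata4 and Nkx2-5 had log2 fold changes of 0.22 and 0.38, Tnnt2 and Nppa of −0.05 and −0.06, and Ryr2 of −0.15. Myl7 and Tbx5 were above every vehicle library in BRL replicates 2 and 3. The sum of 6 smooth muscle genes was 3383 to 3781 CPM in vehicle, 1517 CPM in BRL replicate 1 and 2738 and 2979 CPM in the others. Most of it was Acta2, at 2463 to 2813 CPM in vehicle and 1032, 1871 and 2129 CPM in BRL. Tagln and Smtn were also below vehicle in every BRL library. Des had 310 to 326 CPM in vehicle and 248, 345 and 335 CPM in BRL. Cnn1 had at most 5.38 CPM, and Myh11 had 1 or 2 counts in each library. Markers of other cells were near 0: 6 fibroblast genes summed to at most 5.88 CPM (Dcn and Lum had no counts), 6 endothelial genes to at most 6.29 CPM (Emcn had none) and 7 leukocyte genes to at most 5.13 CPM (Ptprc, Csf1r and Lyz2 had none).

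A promoter element through which ATF4 acts, the C/EBP-ATF response element, has the core TGATGNAA. This core was searched on both strands in the 250 bases before annotated start sites (RefSeq, GRCm38.p6), where 25 of the 36 members matched an entry. It was found in 3 of 12 matched cytosolic genes (Aars, Gars and Tars) and 0 of 13 matched mitochondrial genes, and in 3.91% of the 27025 genes in the table. The 11 members without an entry were not searched: Cars, Farsa, Hars, Lars, Nars, Rars, Vars, Wars, Hars2, Pars2 and Vars2. The palindromic cyclic AMP response element TGACGTCA, relevant because β-adrenergic receptors signal through cyclic AMP, was found in none of the 25 and in 1.77% of all genes. The 3 promoters with a match are printed 5′ to 3′ along the gene, with the matching letters, which lie on the reverse strand in each, in capitals; Sars is printed as a cytosolic gene without a match that is described further on.
Aars, chr8:111033592-111033841, plus strand: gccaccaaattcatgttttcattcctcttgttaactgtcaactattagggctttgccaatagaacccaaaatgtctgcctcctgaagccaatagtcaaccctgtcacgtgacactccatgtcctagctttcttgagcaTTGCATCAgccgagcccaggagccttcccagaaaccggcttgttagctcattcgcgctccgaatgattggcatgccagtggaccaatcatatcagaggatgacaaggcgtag
Gars, chr6:55037751-55038000, plus strand: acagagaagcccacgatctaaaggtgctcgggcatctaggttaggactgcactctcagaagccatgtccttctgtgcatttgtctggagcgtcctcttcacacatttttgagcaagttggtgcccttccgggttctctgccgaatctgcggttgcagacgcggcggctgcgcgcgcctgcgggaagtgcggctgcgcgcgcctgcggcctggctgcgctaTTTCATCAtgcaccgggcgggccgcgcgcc
Tars, chr15:11399659-11399908, minus strand: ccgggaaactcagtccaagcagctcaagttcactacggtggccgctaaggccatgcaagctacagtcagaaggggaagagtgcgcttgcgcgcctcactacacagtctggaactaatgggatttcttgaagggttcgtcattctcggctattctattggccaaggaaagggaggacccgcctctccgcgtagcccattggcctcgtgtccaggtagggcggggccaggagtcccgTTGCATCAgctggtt
Sars, chr3:108445260-108445509, minus strand: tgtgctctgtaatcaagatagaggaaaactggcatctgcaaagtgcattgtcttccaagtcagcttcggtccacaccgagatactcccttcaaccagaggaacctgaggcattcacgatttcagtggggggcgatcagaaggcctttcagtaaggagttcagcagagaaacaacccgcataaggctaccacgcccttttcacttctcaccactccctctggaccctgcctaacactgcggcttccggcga
The match began 112 bases before the start in Aars, 30 bases before it in Gars and 15 bases before it in Tars. A match in letters is a description and does not show a bound site.

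Levels of different genes were compared on a scale corrected for transcript length, as TPM (the deposited RSEM fraction rescaled). In vehicle the 20 cytosolic genes had a median of 79.97 TPM (range 23.5 to 267) and the 16 mitochondrial genes a median of 16.2 (range 4.23 to 154). Gars, for glycine, was the most abundant over all 6 libraries, at 276, 262 and 263 in vehicle and 498, 252 and 257 in BRL. Sars, for serine, stood beside it at 294, 259 and 242 in vehicle and 452, 282 and 275 in BRL, and these values overlapped those of Gars. Farsa, a subunit of the phenylalanine enzyme, was the lowest cytosolic gene over all 6 libraries (in vehicle alone Wars was), at 25.2, 24.7 and 22.0 in vehicle and 39.9, 26.1 and 24.2 in BRL. Within the cytosolic class, the highest and lowest genes thus lay apart in every library, and each of these 3 genes had its highest value in BRL replicate 1. Unlike CPM, TPM were not scaled between libraries, and mitochondrially encoded transcripts took only 5.03% of counts in BRL replicate 1. In CPM the gap was smaller: Gars had 407 to 412 CPM in vehicle and 582 CPM in BRL replicate 1. The part of that low share in the TPM values was not tested.

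Among mitochondrial enzymes Lars2, for leucine, was the most abundant, at 147, 199.8 and 114 TPM in vehicle and 139.7, 195 and 197 in BRL. It was above its cytosolic partner Lars in vehicle (means of 154 against 35.5), whereas in every other pair the cytosolic gene had the higher vehicle mean. Aars2, for alanine, was the lowest, at 5.39, 3.87 and 3.41 in vehicle and 6.11, 4.86 and 4.76 in BRL. Part of the Lars2 transcript is shared in sequence with other transcripts: its bases 3278 to 3349 matched Gm15564 at 98.6% identity and bases 3233 to 3329 matched AA474408 at 94.8%. Expected counts of Lars2 were not whole in BRL replicate 1, so some of its reads were assigned in fractions there.

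**Figure D1:**
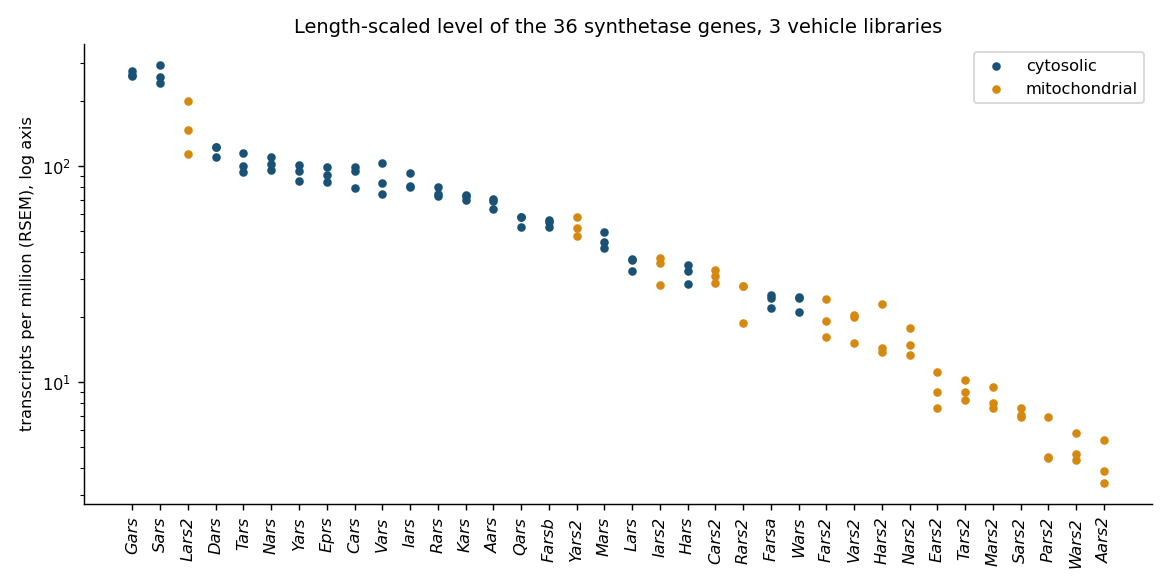
TPM (RSEM fraction, log axis) of each of the 36 synthetase genes in the 3 vehicle libraries, ordered by mean; blue points are cytosolic and orange points mitochondrial enzymes. Gars and Sars lead, Lars2 is the 1 mitochondrial gene among the highest, and the lowest places, down to Aars2, are held by mitochondrial enzymes.

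The comparison of BRL with vehicle asked whether the agonist altered these transcripts after hypoxia and reoxygenation. In edgeR's quasi-likelihood fit of 12047 genes (Benjamini-Hochberg adjusted p), 0 of the 20 cytosolic and 0 of the 16 mitochondrial genes passed at 0.05, where 1.01% of all tested genes rose and 1.79% fell (2.81% in either direction). DESeq2 and limma-voom also called 0 of the 36. At an unadjusted edgeR p under 0.05, 4 cytosolic and 2 mitochondrial genes were higher and none was lower, against 11.6% of all genes higher and 10.8% lower. All 20 cytosolic log2 fold changes were above 0 (0.00 to 0.64, median 0.24), as were 12 of 16 mitochondrial ones (−0.16 to 0.34, median 0.15) and 50.7% of all genes tested, whose median was 0.01. Every BRL library lay above every vehicle library in 6 cytosolic and 4 mitochondrial genes, against 16% of all genes, and in none below, against 15.5%. In such bulk samples, fewer cells of a type and less RNA per cell cannot be told apart.

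Cytosolic levels were highest in BRL replicate 1. The summed level of the 20 cytosolic genes was 3023, 2883 and 2931 CPM in vehicle and 4217, 3147 and 2904 CPM in BRL replicates 1, 2 and 3. Thus BRL replicate 1 lay above all other libraries, BRL replicate 2 slightly above vehicle, and BRL replicate 3 inside the vehicle range. Relative to vehicle, the cytosolic median (log2) stood at 0.50, 0.10 and −0.00 in the 3 BRL libraries, above 87.7%, 61.0% and 49.5% of all genes tested in the same libraries. In 18 of the 20 cytosolic genes BRL replicate 1 was the highest of the 6 libraries, against 30.2% of all genes; the exceptions were Cars and Qars. At least 0.3 above the vehicle mean were 15 cytosolic genes in BRL replicate 1, 3 in BRL replicate 2 and 0 in BRL replicate 3, against 24.4%, 19.0% and 13.2% of all genes.

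Mitochondrial enzymes were distributed differently over the libraries. The 16 genes summed to 753, 869.6 and 667 CPM in vehicle and 689, 945 and 896 CPM in BRL, a sum dominated by Lars2. Without Lars2 the other 15 summed to 397, 354 and 375 CPM in vehicle and 422, 399 and 379 CPM in BRL, with overlapping groups. Relative to vehicle, the class median (log2) stood at 0.10, 0.25 and 0.09 for BRL replicates 1, 2 and 3, so that BRL replicate 2 was the highest. These medians were above 59.2%, 77.2% and 63.6% of all genes tested in the same libraries. At least 0.3 above the vehicle mean were 4, 7 and 4 of the 16 genes, against 24.4%, 19.0% and 13.2% of all genes. At least 0.3 below it were 2, 0 and 1, where the lower quartile of all genes tested was −0.396, −0.245 and −0.175. BRL replicate 1 was the highest of 6 libraries in 4 of 16 genes, or 25%, near the 30.2% of all genes. The cytosolic median log2 fold change minus the mitochondrial one was 0.09 with all 6 libraries and −0.12 without BRL replicate 1, a difference in sign that was not tested.

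**Figure D2:**
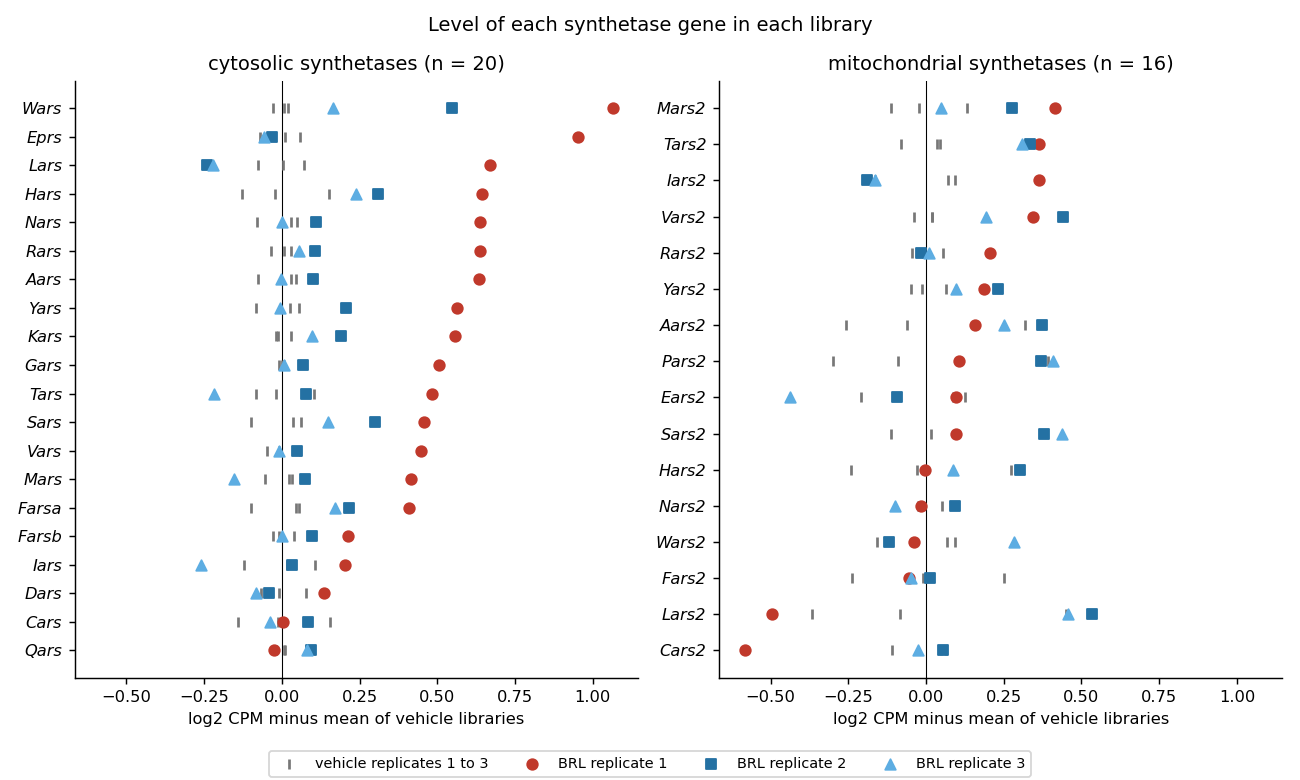
Level of each synthetase gene in each library, as log2 CPM minus the mean of the vehicle libraries, for cytosolic (left) and mitochondrial (right) enzymes ordered by their value in BRL replicate 1. The red circles of BRL replicate 1 lie to the right of all other symbols in 18 of 20 cytosolic and 4 of 16 mitochondrial genes.

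**Figure D3:**
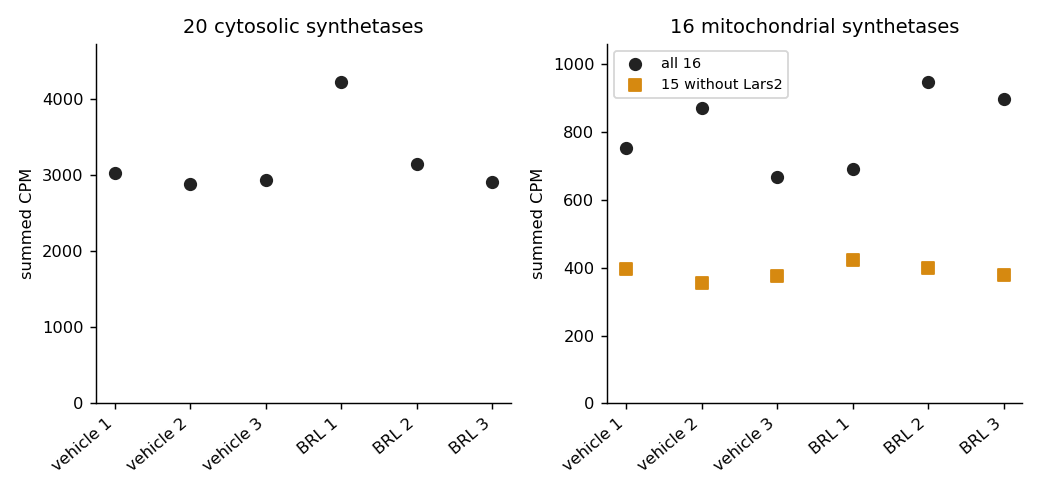
Summed CPM of the 20 cytosolic and the 16 mitochondrial enzymes in each library, with squares for the 15 mitochondrial genes left without Lars2. BRL replicate 1, at 4217 CPM, is above the other libraries on the left, and the squares range from 354 to 422 CPM.

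Among cytosolic genes, Wars (ENSMUSG00000021266), for tryptophan, had the largest log2 fold change. It measured 38.8, 38.4 and 37.5 CPM in vehicle and 80.1, 56.0 and 42.9 CPM in BRL replicates 1, 2 and 3. The groups did not overlap, while BRL replicate 3 stood close to vehicle and BRL replicate 1 far above it. The log2 fold change was 0.64 ± 0.21 (SE, edgeR adjusted p = 0.128). Without BRL replicate 1 Wars rose by 0.37 ± 0.11 (edgeR adjusted p = 0.0320; 0.0320 to 0.364 over 13 alternatives). Its mitochondrial partner Wars2 had 13, 10.9 and 12.8 CPM in vehicle and 11.9, 11.3 and 14.9 CPM in BRL, with overlapping groups.

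Sars (ENSMUSG00000068739), the serine enzyme, measured 274, 269 and 245 CPM in vehicle and 359.9, 323 and 291 CPM in BRL. All 3 BRL libraries were above the vehicle libraries, and BRL replicate 3 was the closest to them. The log2 fold change was 0.31 ± 0.11 (edgeR adjusted p = 0.158), and without BRL replicate 1 Sars rose by 0.23 ± 0.07 (edgeR adjusted p = 0.0400; 0.0400 to 0.460 over 13 alternatives). Sars2, its partner in mitochondria, had 7.85, 8.60 and 9.12 CPM in vehicle and 9.13, 11.1 and 11.6 CPM in BRL. Here BRL replicate 1 touched the top of the vehicle range and the other BRL libraries were clearly above it (0.32 ± 0.18, edgeR adjusted p = 0.341).

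Hars, for histidine, had 39.7, 36.9 and 44.8 CPM in vehicle and 63.1, 50.1 and 47.7 CPM in BRL, with no overlap (log2 fold change 0.41 ± 0.14, edgeR adjusted p = 0.142). Hars2 measured 21.8, 17.6 and 15.2 CPM in vehicle and 18, 22.2 and 19.2 CPM in BRL, with overlap. Exons of these neighbours overlap on opposite strands and the counts of both were not whole, so reads may be split between them. Farsa measured 26.5, 26.6 and 23.9 CPM in vehicle and 34.1, 29.8 and 29.0 CPM in BRL, without overlap (0.27 ± 0.12, adjusted p = 0.220 by edgeR). Fars2, which charges phenylalanine in mitochondria as a single chain, had 31.8, 22.7 and 26.6 CPM in vehicle and 25.8, 27.0 and 25.9 CPM in BRL, all of the latter inside the vehicle range.

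Eprs, which joins the glutamate and proline enzymes in 1 chain, is given although outside the rule for named genes, after its values were seen. It had 299, 273 and 289 CPM in vehicle and 555, 281 and 276 CPM in BRL replicates 1, 2 and 3. BRL replicate 1 was far above the rest, and the other BRL libraries lay inside the vehicle range. Its log2 fold change of 0.37 ± 0.25 (edgeR adjusted p = 0.424) was −0.04 ± 0.07 without BRL replicate 1. Gars was also highest in BRL replicate 1, at 407, 412 and 410.3 CPM in vehicle and 582, 429.8 and 411 CPM in BRL (log2 fold change 0.21 ± 0.14, edgeR adjusted p = 0.412). Qars, for glutamine, had 76.9, 78.5 and 78.2 CPM in vehicle and 76.6, 83.2 and 82.4 CPM in BRL, and with Cars it was 1 of the 2 cytosolic genes in which BRL replicate 1 was not the highest. The other cytosolic genes (Aars, Cars, Dars, Farsb, Iars, Kars, Lars, Mars, Nars, Rars, Tars, Vars and Yars) had log2 fold changes between 0.00 and 0.30, with edgeR adjusted p between 0.227 and 0.996; of these, Kars and Rars had groups that did not overlap.

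Of the mitochondrial genes, Vars2 (ENSMUSG00000038838), for valine, had the smallest p. It measured 34.1, 32.7 and 34.1 CPM in vehicle and 42.8, 45.8 and 38.5 CPM in BRL. All BRL libraries were above vehicle, and here BRL replicate 2 was the highest. The log2 fold change was 0.33 ± 0.11 (edgeR adjusted p = 0.130), and without BRL replicate 1 Vars2 rose by 0.33 ± 0.10 (edgeR adjusted p = 0.0364; 0.0364 to 0.373 over 13 alternatives). An antisense gene, Gm20483, overlaps its exons, and no source here gives the strand setting of the counting; in all, exons of 13 members overlap another annotated gene.

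Tars2, for threonine, had 14.6, 14.5 and 13.4 CPM in vehicle and 18.3, 17.9 and 17.6 CPM in BRL. The 3 BRL values lay close together and above all vehicle values (log2 fold change 0.34 ± 0.13, edgeR adjusted p = 0.173). Yars2, for tyrosine, had 35.7, 36.5 and 38.5 CPM in vehicle and 42.0, 43.4 and 39.5 CPM in BRL, without overlap (0.17 ± 0.10, edgeR adjusted p = 0.350). Each of these genes was thus above vehicle in BRL replicates 2 and 3 as well as in replicate 1.

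The mitochondrial genes with a negative log2 fold change of smallest p were Cars2, Ears2 and Fars2. Cars2, for cysteine, had 35.2, 34.8 and 31.2 CPM in vehicle and 22.5, 35.1 and 33.1 CPM in BRL, so that only BRL replicate 1 was below the vehicle range (−0.16 ± 0.17, edgeR adjusted p = 0.627). Its exons overlap those of Naxd on the opposite strand. Ears2, for glutamate, had 17.5, 13.8 and 17.0 CPM in vehicle and 17.2, 15.1 and 11.9 CPM in BRL, with BRL replicate 3 lowest (−0.13 ± 0.18, edgeR adjusted p = 0.709). On the opposite strand, exons of Ears2 overlap those of Ubfd1 (2439 counts in all), and exons of Fars2 overlap those of Lyrm4 and Nrn1.

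Lars2 was the member that varied most between vehicle libraries relative to its mean, at 356, 515 and 292 CPM in vehicle and 267, 546 and 517 CPM in BRL. Vehicle replicate 2 was near BRL replicates 2 and 3, and BRL replicate 1 was the lowest of all (log2 fold change 0.19 ± 0.29, edgeR adjusted p = 0.735). The library with the lowest share of mitochondrially encoded transcripts, BRL replicate 1, was also the one with the lowest Lars2, whereas vehicle replicate 3 had low Lars2 at a share of 19.7%; the part of this share in the result was not tested. Aars2 had 11.2, 8.60 and 7.50 CPM in vehicle and 10.1, 11.7 and 10.8 CPM in BRL (log2 fold change 0.25 ± 0.20, edgeR adjusted p = 0.482). The other mitochondrial genes (Hars2, Iars2, Mars2, Nars2, Pars2, Rars2 and Wars2) had log2 fold changes between −0.00 and 0.29.

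**Figure D4:**
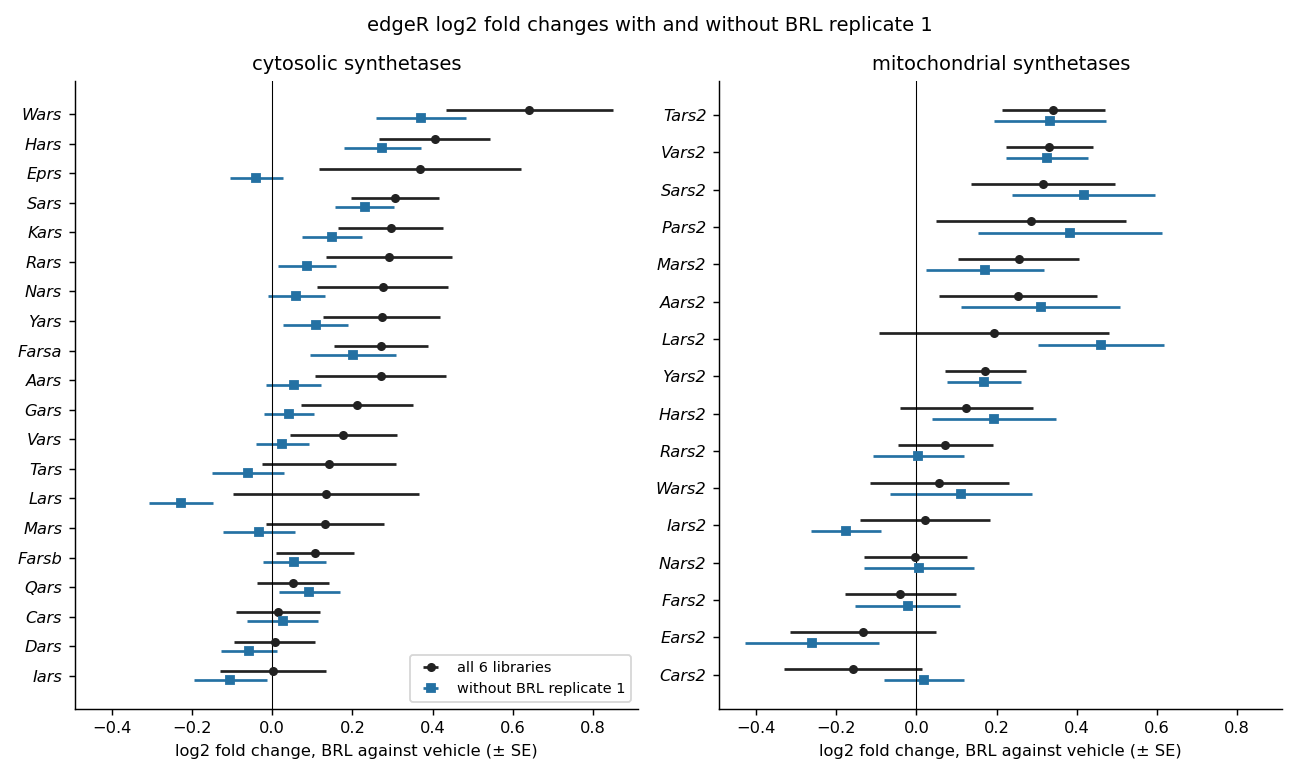
edgeR log2 fold changes of BRL against vehicle with standard errors for each gene, in all 6 libraries (black circles) and without BRL replicate 1 (blue squares). Without that library Eprs and Lars move from 0.37 and 0.13 to −0.04 and −0.23, while Tars2 and Vars2 stay near 0.33.

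Without BRL replicate 1, in a fit that called 10.3% of all genes higher and 10.9% lower, 2 cytosolic genes (Sars and Wars) and 1 mitochondrial gene (Vars2) rose and none fell. Shares of 2 in 20 and 1 in 16 were near that background. In this fit 14 of 20 cytosolic genes had a positive log2 fold change (median 0.06, from 0.24), and 13 of 16 mitochondrial genes did (median 0.17, from 0.15), beside 50.3% of all genes. Lars was the lowest cytosolic gene, with −0.23 (edgeR adjusted p = 0.0565; 0.0565 to 0.901 over 13 alternatives), against 0.13 with all libraries.

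The ratio of a cytosolic gene to the mitochondrial gene for the same amino acid, taken within each library, does not depend on library scaling. Of 17 such pairs none had groups without overlap. The pairs are not all separate, since Eprs was paired with both Ears2 and Pars2, and Fars2 with both Farsa and Farsb. Dars, Gars, Kars and Qars had no pair. In 15 pairs the ratio was highest of the 6 libraries in BRL replicate 1, the exceptions being Iars to Iars2 and Mars to Mars2. The median ratio over its vehicle mean was 0.46 (log2) in BRL replicate 1, 0.01 in BRL replicate 2 and −0.10 in BRL replicate 3. For Lars to Lars2 the log2 ratio was −2.01, −2.63 and −1.66 in vehicle and −0.93, −2.87 and −2.78 in BRL, the widest spread of any pair. For Wars to Wars2 it was 1.57, 1.81 and 1.55 in vehicle and 2.74, 2.31 and 1.52 in BRL, so that BRL replicate 3 was just below the vehicle libraries.

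The cytosolic class was also described by groups of enzymes. The 8 enzymes of the multisynthetase complex had medians over the vehicle mean of 0.49, 0.05 and −0.07 (log2) in BRL replicates 1, 2 and 3, and the 12 others 0.50, 0.11 and 0.00. Without BRL replicate 1 the complex enzymes had a median log2 fold change of −0.04, with 3 of 8 positive, and the others 0.06, with 11 of 12 positive. The 12 genes widely reported as responsive to ATF4 had medians of 0.53, 0.08 and −0.02, and the 8 remaining cytosolic genes 0.43, 0.10 and 0.07. With BRL replicate 1 left out, 7 of the 12 ATF4-responsive genes had a positive log2 fold change (median 0.04), as did 7 of the 8 remaining genes (median 0.09). By structural class of the catalytic domain, class I enzymes (9 genes) had 0.45 and class II enzymes (10 genes) 0.50 in BRL replicate 1. These groups overlap in membership and no difference between them was tested.

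Other genes around transfer RNA charging and the amino acid response were counted in lists of the same kind, and edgeR called 0 of the 46 genes tested in them, against 2.81% of all genes. Of the 3 scaffold genes of the multisynthetase complex, Aimp2 had the smallest p, at 76.9, 59.2 and 65.1 CPM in vehicle and 101, 97.6 and 78.4 CPM in BRL (log2 fold change 0.46 ± 0.14, edgeR adjusted p = 0.107); its counts were not whole. BRL replicate 3 was just above the highest vehicle library, and without BRL replicate 1 Aimp2 rose by 0.40 ± 0.11 (edgeR adjusted p = 0.0257). Among 20 genes of transfer RNA synthesis, processing and export, Pop4, a subunit of RNase P, had 24.9, 26.2 and 24.7 CPM in vehicle and 45.7, 35.3 and 28.6 CPM in BRL (log2 fold change 0.53 ± 0.17, edgeR adjusted p = 0.130). This list had medians of 0.47, 0.10 and 0.06 in BRL replicates 1, 2 and 3, the same order as the cytosolic enzymes. Of 6 further synthetase-like and editing genes, Prorsd1 had the smallest p, at 26.2, 32.1 and 35.3 CPM in vehicle and 15.6, 27.7 and 27.4 CPM in BRL (log2 fold change −0.41 ± 0.22, edgeR adjusted p = 0.321).

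The amino acid response, in which GCN2 and ATF4 act, was measured through 18 genes, of which 17 were tested and Chac1 had a single count in all. None of the 17 passed edgeR's adjusted threshold, and 4 were higher and 0 lower at an unadjusted p under 0.05, where 11.6% of all genes were higher and 10.8% lower. Cebpb, a partner of ATF4, had the smallest p (15, 14.9 and 10.9 CPM in vehicle, 23.0, 36.9 and 22.4 CPM in BRL, log2 fold change 1.01 ± 0.23, edgeR adjusted p = 0.0589), with counts that were not whole. The list's medians were 0.36, 0.32 and −0.01 in BRL replicates 1, 2 and 3, so BRL replicate 2 was near replicate 1 here and not in the cytosolic enzymes. Without BRL replicate 1, 4 of the 17 rose and none fell (Cebpb, Atf4, Trib3 and Sesn2), in a fit that called 10.3% of all genes higher and 10.9% lower; whether the list differs from all genes was not tested. Atf4 itself had 291, 275 and 264 CPM in vehicle and 395, 391 and 318 CPM in BRL (log2 fold change 0.41 ± 0.11, edgeR adjusted p = 0.0921), and without BRL replicate 1 it rose by 0.36 ± 0.08 (edgeR adjusted p = 0.00951).

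**Figure D5:**
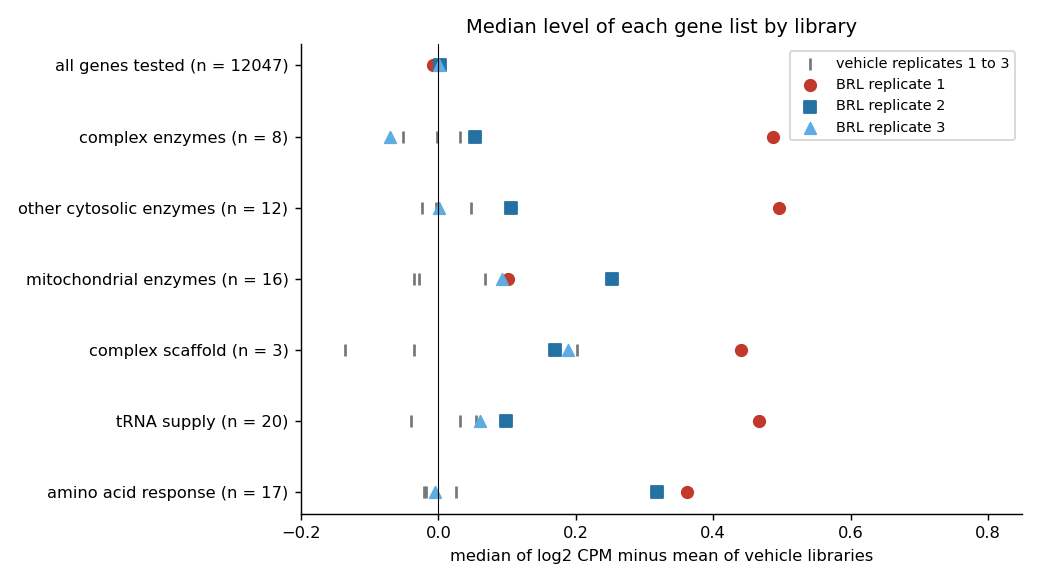
Median over the genes of each list of log2 CPM minus the mean of the vehicle libraries, by library. BRL replicate 1 is at 0.44 to 0.50 for cytosolic enzymes, scaffold and transfer RNA supply and at 0.10 for mitochondrial enzymes; BRL replicate 2 is at 0.32 for the amino acid response.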

How the data were processed

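RNA sequencing of 6 HL-1 libraries was used, with groups and replicate numbers from the sample titles. Each deposited sample file gives expected counts per gene and the fraction of transcripts, both from RSEM. The submitters' processing notes name cutadapt, Bowtie, RSEM 1.17, edgeR and build NCBIM37; the sources used here give no settings for them. A table of normalised values for the series was not used here. Symbols came from the supplied table of names.

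After rounding of expected counts, genes were filtered by filterByExpr (minimum count 10), scaled by TMM and tested by the quasi-likelihood F-test of edgeR 4.0.16 (R 4.3.3) with group as the only term; dividing the absolute log2 fold change by the root of F gave its standard error. CPM are counts relative to TMM-scaled library totals, and log2 levels have 0.5 added to each count. Member counts ran from 25 (Pars2, counting error 20%) to 4398 (Gars, 1.51%). Counts are called not whole where they differ from a whole number by over 0.005 in any library. Transcripts were matched with BLAST 2.17.0 (97% identity over 100 bases, shorter for Lars2) and exon overlaps taken from GENCODE M21. The fit was tested on simulated data with known changes. It recovered 13 of 50 genes changed 1.5-fold, 37 of 50 changed 2-fold and 46 of 50 changed 4-fold. Small changes could thus go uncalled. DESeq2 1.42.0, limma 3.58.1, other scalings and filters, a replicate block and leaving out each library were the alternatives.

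The members and lists were chosen with earlier results of these data known. Values per library are given for members past the threshold (none), those of the 4 smallest p with a positive and 3 with a negative log2 fold change in each class, those of highest and lowest fraction, and mitochondrial partners; of the other lists, the member of smallest p. Eprs, Qars, Atf4, Lars to Lars2 and Wars to Wars2 were added after their values were seen.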

Additional observations from a re-analysis of the deposited data

How the results depend on the processing

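Over 13 alternatives no synthetase was called lower, and none was called higher except Wars without a filter on low counts (1 cytosolic gene) and Sars, Wars and Vars2 without BRL replicate 1. Leaving out each library in turn, 0 to 2 cytosolic and 0 to 1 mitochondrial genes were called higher; the cytosolic median ran from 0.06 to 0.31, the mitochondrial median from 0.08 to 0.17 and their difference from −0.12 to 0.18, the lowest cytosolic median and the lowest difference being without BRL replicate 1. Over all genes, where 122 were called higher and 216 lower, leaving out a library gave 17 to 1240 higher and 15 to 1315 lower, the largest without BRL replicate 1 and the smallest without vehicle replicate 3; each of the 6 removals moved both counts by over 1.5 times. DESeq2 called 246 higher and 355 lower, no filter on low counts gave 282 and 330, and library totals without scaling factors gave 77 higher. With the replicate number as a block, 63 genes were called higher and 150 lower, and no synthetase passed. Same-numbered libraries did not deviate together (correlations of 0.10, −0.05 and −0.04 over genes), so the numbers were not taken as pairs. Depth limits the mitochondrial class most: its lowest count was 25 (Pars2, counting error 20%), against 118 (Farsa, 9.21%) among cytosolic genes.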
